A study of Drosophila melanogaster with 6 samples.

Results

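The transcriptome of wild-type Drosophila melanogaster embryos was described from 3 arrays, the wild-type arrays of a series of 6. They were chosen by their titles, wild-type embryos replicate 1, 2 and 3, and no value of another group was used. All 3 arrays hold total RNA of whole Oregon R embryos, the control stock of the study, with no further allele or treatment. An 8 h collection of eggs was aged by 11 h to give stages 11 to 16, embryos were picked with an embryo sorter, and the design text calls the collections independent. Each array therefore pools many embryos of 1 collection and spans several stages. From the Affymetrix Drosophila Genome 2.0 array 18769 of 18952 probe sets were described, the other 183 being controls of the array maker. They gave 11982 genes, each taken at its brightest probe set with a single symbol. Values are log2 signal after RMA, a background correction and normalization that brings the arrays of a study close to 1 distribution. Every level and every difference below is therefore relative to the rest of the array. The 25th percentile of signal was still 4.74, 4.78 and 4.87 in replicates 1, 2 and 3.

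Stages 11 to 16 cover the second part of Drosophila embryogenesis, after gastrulation. The germ band retracts, tracheal tubes and salivary glands form, neuroblasts give rise to the central nervous system, myoblasts fuse into body wall muscles, and the epidermis begins to secrete cuticle. Genes of the maternal egg and of the blastoderm are known for early embryos, cuticle and contractile genes for late ones. Odorant receptors, accessory gland proteins and sperm proteins are known from later life.

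The median signal was 5.55, 5.52 and 5.56 on the arrays of replicates 1, 2 and 3, and the highest was 14.69, 14.68 and 14.72. The 20 TrpnX and Tag control probe sets, which carry foreign or artificial sequence, lay between 3.98 and 5.86, and 15 of the 20 were highest in replicate 3. A gene was called bright when it lay in the top 5% of probe sets on all 3 arrays, dim when it lay at or below the 50th percentile on all 3, and varying when its highest and lowest array differed by at least 1 log2 unit, that is 2-fold. Of the 11982 genes 524 (4.37%) were bright, 3902 (32.6%) were dim and 1664 (13.9%) were varying. These shares are the background for the counts of each gene family. Because probes differ in affinity, a rank is a rank of signal and not of transcript number, and no level is compared between genes beyond such ranks. With 1 array for each collection no test between collections was possible, so the differences among the 3 arrays are given as values with no p-value.

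Of the defining markers of embryonic tissues that were read as single genes, Hml alone was dim. Among the marker families, 6 of 13 Jon (midgut), 7 of 24 Osi and 40 of 66 Cpr genes (epidermis and cuticle) were dim. The share over all named genes was 32.6%. The tracheal receptor gene btl had 6.91, 7.44 and 6.84 log2 units in replicates 1, 2 and 3, and the salivary gland regulators fkh and sage averaged 8.37 ± 0.37 and 8.12 ± 0.30 (SD, n = 3). For neurons, elav had 11.02, 11.05 and 9.65, and for glia, repo had 9.66, 9.22 and 8.20. The germ line helicase vas was near the array median, with 5.06, 5.66 and 5.87. Among haemocyte markers srp and Pxn averaged 9.74 ± 0.16 and 7.95 ± 0.75 (SD, n = 3), while Hml was dim at 5.02, 5.12 and 5.29. Mhc, Mef2, Act57B, trh, CrebA, Syt1, nos and Adh were not analysed here.

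Among the named genes the ribosome gave the brightest signals. All but 1 of the 15 brightest genes coded for cytoplasmic ribosomal proteins, and the exception, Rack1, codes for a scaffold protein of the small ribosomal subunit. RpLP1, a protein of the ribosomal stalk, was at the top of the named genes with 14.68, 14.68 and 14.70 log2 units in replicates 1, 2 and 3. Probe sets without a single symbol were left out of this ranking, and the mean of RpLP1 was not the highest of all probe sets. RpS18 followed with 14.69, 14.64 and 14.67, and the last of the 15, Rack1, still had 14.22, 14.24 and 14.23. Of 90 listed cytoplasmic ribosomal protein genes 38 had a probe set with a single symbol, and the rest were not read. Of these 38 genes 32 were bright, against 4.37% of all named genes. Their median range among the 3 arrays was 0.09 log2 units, against 0.39 for all named genes. This evenness depends on the scale: scaled to the hybridization controls, the median range was 0.36, against 0.43 for all named genes. Without replicate 1 it was 0.049, against 0.21, and without replicate 3 it was 0.037, against 0.20. The list was not uniform, because paralogues lay far below it. RpL10Aa, a paralogue of RpL10Ab, was dim at 5.30, 5.23 and 5.49, while RpL10Ab had 14.42, 14.40 and 14.44. RpS28-like was also dim at 4.71, 4.87 and 4.98, and RpL22-like and RpS28a averaged 5.69 ± 0.32 and 6.30 ± 0.10 (SD, n = 3). RpS19b was the single varying member, with 6.94, 6.78 and 7.79.

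Outside the ribosomal proteins the 12 brightest genes included those of 2 translation factors, a chaperone and an actin regulator. The translation factors eEF5 and eIF4A averaged 14.17 ± 0.08 and 13.93 ± 0.03 (SD, n = 3), the actin-severing cofilin gene tsr 14.09 ± 0.12, the constitutive chaperone Hsc70-4 13.83 ± 0.07 and the ubiquitin-like modifier Sumo 13.81 ± 0.11. Tctp, Fkbp12, the ferritin subunit Fer1HCH, the histone variant His2Av and 14-3-3epsilon completed the set with Obp99a, an odorant binding protein. These 12, Rack1 included, were taken after their values were seen. Obp99a had 13.64, 13.68 and 13.50, whereas 38 of the 49 odorant binding protein genes were dim, against 32.6% of all named genes. Obp56a and Obp99c, with means of 9.86 ± 0.78 and 10.07 ± 0.58 (SD, n = 3), were the next brightest of that family.

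Other core machinery followed the ribosome. Of 48 translation factor genes 26 were bright, and of 73 respiratory chain and ATP synthase genes 36 were bright, both against 4.37% of all named genes. No respiratory chain gene varied 2-fold, against 13.9% of all named genes. The 69 mitochondrial ribosomal protein genes lay lower and close together, between 8.45 and 11.55 log2 units. Of them 2 were bright and none dim, against 4.37% and 32.6% of all named genes. Of 27 secretory pathway genes 11 were bright, of 20 chaperonin and heat shock genes 11, and of 9 histone and chromatin genes 6. Enhancer of split and Bearded genes, which act in Notch signalling and the choice of neural precursors, had 5 of 12 members bright, with Tom at 13.15, 13.27 and 13.42 and Brd at 11.12, 12.07 and 12.49.

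Paralogues of the proteasome and the respiratory chain whose symbols mark them as testis-type, related or like copies were at the other end. Of these 32 genes 25 were dim and none was bright, against 32.6% and 4.37% of all named genes. Prosalpha4 had 10.41, 11.25 and 11.87 log2 units in replicates 1, 2 and 3, while its copies Prosalpha4T1 and Prosalpha4T2 had 4.93, 4.95 and 4.82, and 5.50, 5.52 and 5.93. Rpt3R was the only varying member, at 4.83, 5.44 and 6.23.

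**Figure D1:**
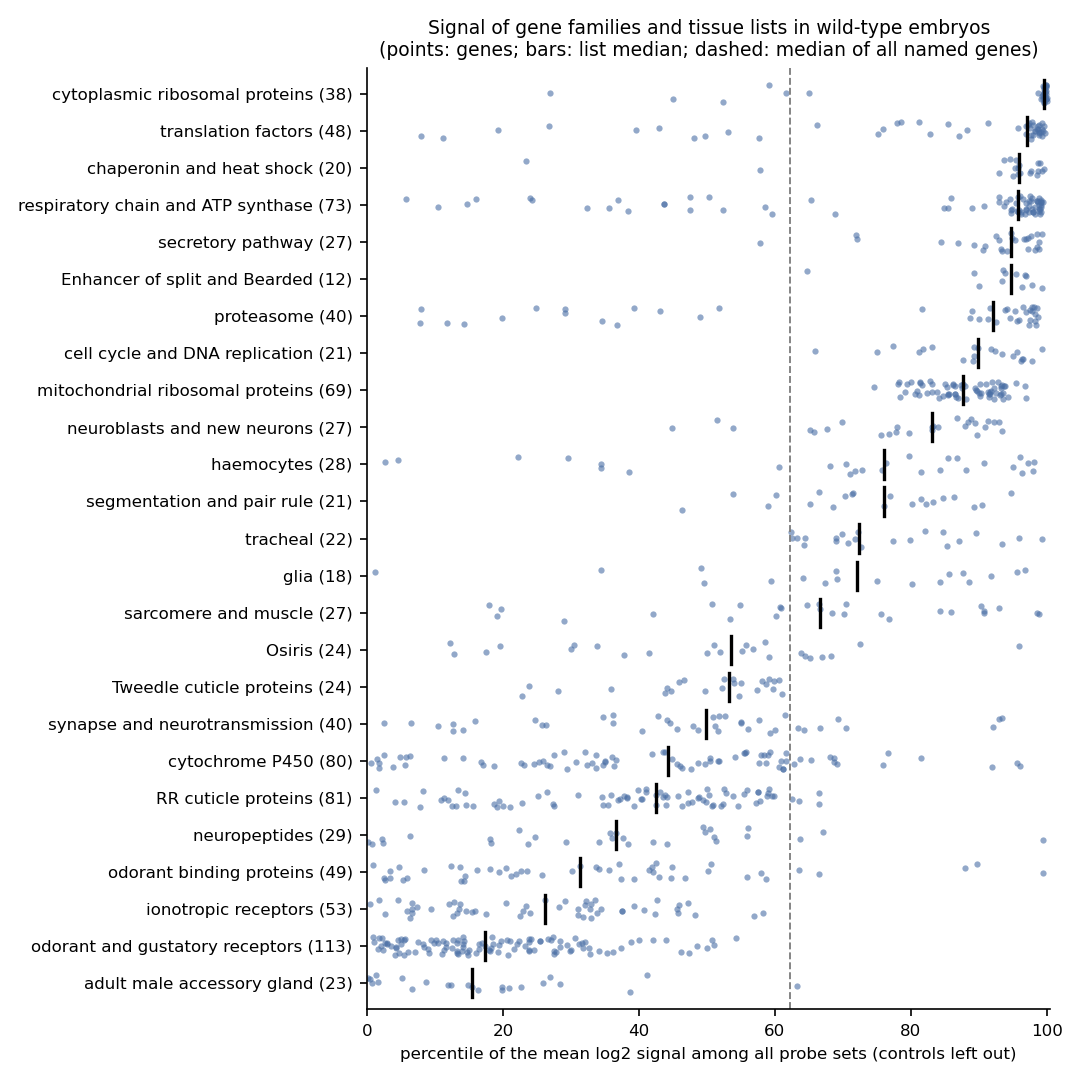
Percentile of the mean log2 signal over the 3 wild-type arrays for each gene (points) of 25 families and tissue lists, with the number of genes in brackets, list medians as bars and the median of all named genes as a dashed line. Ribosomal proteins lie at the right edge apart from a few paralogues, and chemoreceptors and accessory gland genes lie at the left.

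Chemoreceptor genes lay near background. Of 113 odorant and gustatory receptor genes 107 were dim, against 32.6% of all named genes, and the same held for 48 of 53 ionotropic receptor genes. Neither list held a bright or a varying gene. Orco, the common coreceptor of odorant receptors, had 4.82, 4.62 and 4.79 log2 units. The brightest ionotropic receptor gene, Ir68a, had 6.02, 6.24 and 6.33, and Or94b, an odorant receptor gene, had 5.53, 5.62 and 5.67. Genes of adult male accessory glands were dim in 22 of 23 cases, the exception being Acp95EF at 6.72, 6.85 and 7.12. Testis genes were dim in 21 of 24 cases, and mia, a meiotic arrest gene, stood out at 7.35, 7.48 and 7.80.

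Dim did not mean equal on the arrays. Of the 3902 dim genes 2678 (68.6%) were highest in replicate 3, as were 15 of the 20 TrpnX and Tag controls, and the median deviation of dim genes from their own mean was -0.06, -0.03 and 0.09 in replicates 1, 2 and 3. The chemoreceptor list followed this pattern, with 91 of 113 odorant and gustatory receptor genes highest in replicate 3, against 49.2% of all named genes, and a median difference of -0.21 between replicates 1 and 3, which turned to 0.20 when the arrays were scaled to the hybridization controls. The part of background signal in these small differences was not tested.

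Several families known from larvae and adults held 1 or a few members at high signal. Of 29 neuropeptide genes 19 were dim, against 32.6% of all named genes. Among the 19 were sNPF at 3.69, 3.75 and 3.70 and the clock peptide gene Pdf at 5.28, 5.01 and 5.06. Nplp2, annotated as a neuropeptide-like precursor, was bright at 13.50, 13.31 and 13.17. The next in that list, the ion transport peptide gene ITP, had 7.81, 8.19 and 6.49. Of 80 cytochrome P450 genes 43 were dim, against 32.6% of all named genes, and Cyp4e2 was the single bright one, with 10.99, 11.32 and 11.06. The 35 glutathione S-transferase genes lay higher as a family, with a median percentile of 71.6, against 62.2 for all named genes. Of them 4 were dim and 2 bright, against 32.6% and 4.37% of all named genes. GstE6, 1 of the 2 bright genes, had 11.78, 11.41 and 11.03. Among Jonah and trypsin proteases, digestive enzymes of the larval and adult gut, 15 of 27 were dim, against 32.6% of all named genes. Jon44E had 10.26, 9.84 and 10.17. The larval salivary glue genes Sgs1 and Sgs4 were dim, at 5.04 ± 0.20 and 4.93 ± 0.07 (SD, n = 3). The late larval serum protein gene Lsp2 had 5.40, 5.76 and 5.78, whereas the apolipophorin gene apolpp, which codes for the main lipid carrier of the haemolymph, was bright, at 12.63, 13.20 and 11.17. Ecdysone synthesis genes differed in the same way: nvd and spok were dim, at 3.91 ± 0.10 and 3.86 ± 0.07, while dib and spo, which act in the embryo, averaged 7.96 ± 0.13 and 7.49 ± 0.24 (SD, n = 3).

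Replicates 1 and 3 differed most, and replicate 2 mostly lay between them. Pearson's r over all probe sets, a description across probe sets that are not independent, was 0.983 between replicates 1 and 2, 0.985 between replicates 2 and 3, and 0.963 between replicates 1 and 3. A difference of at least 2-fold was found for 591 genes between replicates 1 and 2, 497 between replicates 2 and 3, and 1493 between replicates 1 and 3. Among the 1664 varying genes, replicate 2 held the middle value for 1313 (78.9%). The highest value was in replicate 1 for 980 of them (58.9%), in replicate 2 for 247 (14.8%) and in replicate 3 for 437 (26.3%). The lowest value was in replicate 3 for 1092 of the varying genes (65.6%). Of all 11982 named genes 43.6% were lowest in replicate 1, 28% in replicate 2 and 28.4% in replicate 3, and 59.2% were lower in replicate 1 than in replicate 3. The hybridization controls are spiked bacterial and phage transcripts, whose mean was 10.38, 10.55 and 10.78. Scaled to them, 2241 genes were varying. Of these 80.8% were highest in replicate 1, 13.8% in replicate 2 and 5.44% in replicate 3. The same scaling moved the median difference between replicates 1 and 3 over all named genes from -0.09 to 0.31. On the deposited values the count of varying genes was 497 without replicate 1 and 591 without replicate 3. The ratio of 3′ to 5′ signal, a measure of RNA and labelling quality, also differed, with a log2 difference of 1.72, 1.37 and 1.20 for GAPDH and 1.93, 1.51 and 1.59 for actin in replicates 1, 2 and 3. A second set of GAPDH probe sets had 3.69, 3.80 and 4.06, lowest in replicate 1, so the ratios gave the arrays no common order, and their part in these patterns was not tested. In whole embryos, fewer cells of a type and less RNA per cell cannot be told apart.

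Spread depended on level. In the lowest decile of signal the median range was 0.19 log2 units and 0.25% of genes were varying, while in the decile between 6.73 and 7.89 log2 units it was 0.69 and 30.7% were varying. It was 0.42 in the brightest decile, of which 8.67% were varying. The most even genes above the 75th percentile of signal were RpS15, bor, RpL15, Vha55, CG7945, Rack1, RpL28 and RpL40. The ATPase gene bor had 10.75, 10.76 and 10.77, and the proton pump subunit gene Vha55 had 10.70, 10.68 and 10.69.

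**Figure D2:**
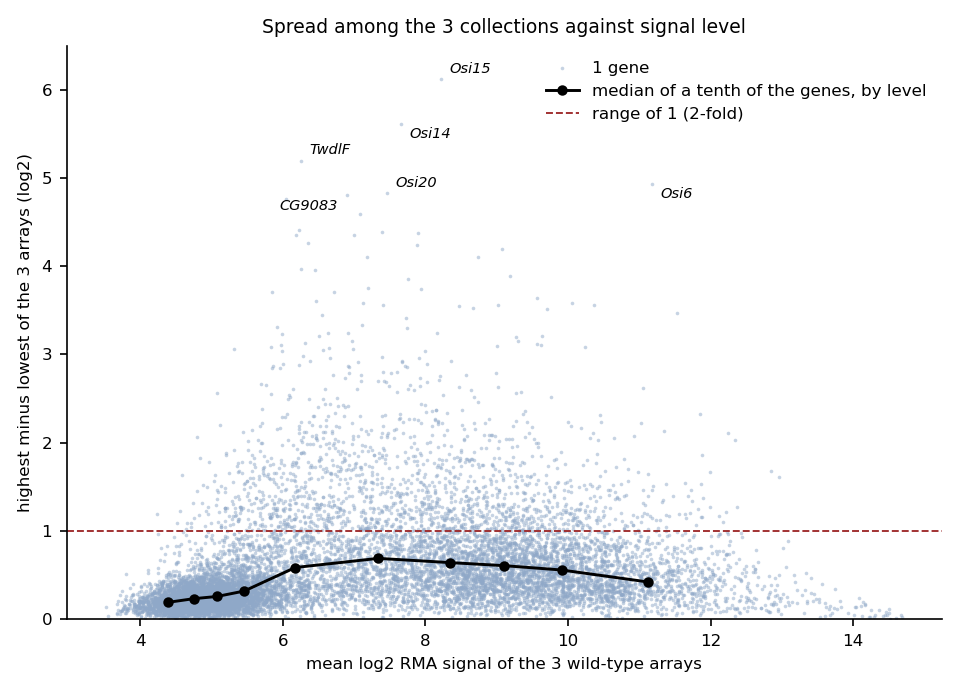
Range among the 3 wild-type arrays (highest minus lowest, log2) against mean log2 signal for 11982 genes, with the median of each decile of signal in black and the 2-fold limit dashed. The median range is largest, 0.69, at intermediate signal, and the 6 genes with the widest range are named.

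All 20 genes with the widest range were highest in replicate 1, and 6 of them were Osiris genes. Osi15 had 11.35, 8.06 and 5.23 log2 units in replicates 1, 2 and 3, a 69.5-fold span, and Osi14 had 10.73, 7.12 and 5.12. Both belong to the Osiris family, membrane proteins of insects found in cells that make cuticle. The Tweedle cuticle protein genes TwdlF and TwdlG were near background outside replicate 1, with 9.66, 4.47 and 4.64 for TwdlF and 9.01, 4.65 and 4.88 for TwdlG. Cpr51A, a chitin-binding cuticle protein gene of the Rebers-Riddiford (RR) type, had 10.06, 6.43 and 5.68. Not all were structural genes: slbo, a C/EBP transcription factor, had 9.45, 6.75 and 5.34, and dyl, which codes for a zona pellucida domain protein that shapes the apical matrix, had 8.55, 5.61 and 4.59. Genes known only by a CG number made up 8 of the 20. They were CG9083, CG3108, CG2962, CG7173, CG9411, CG15239, CG30413 and CG2961, with spans of 15.5-fold for CG2961 to 27.9-fold for CG9083. Such genes were 5209 of the 11982 named genes and 593 of the 1664 varying genes.

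**Figure D3:**
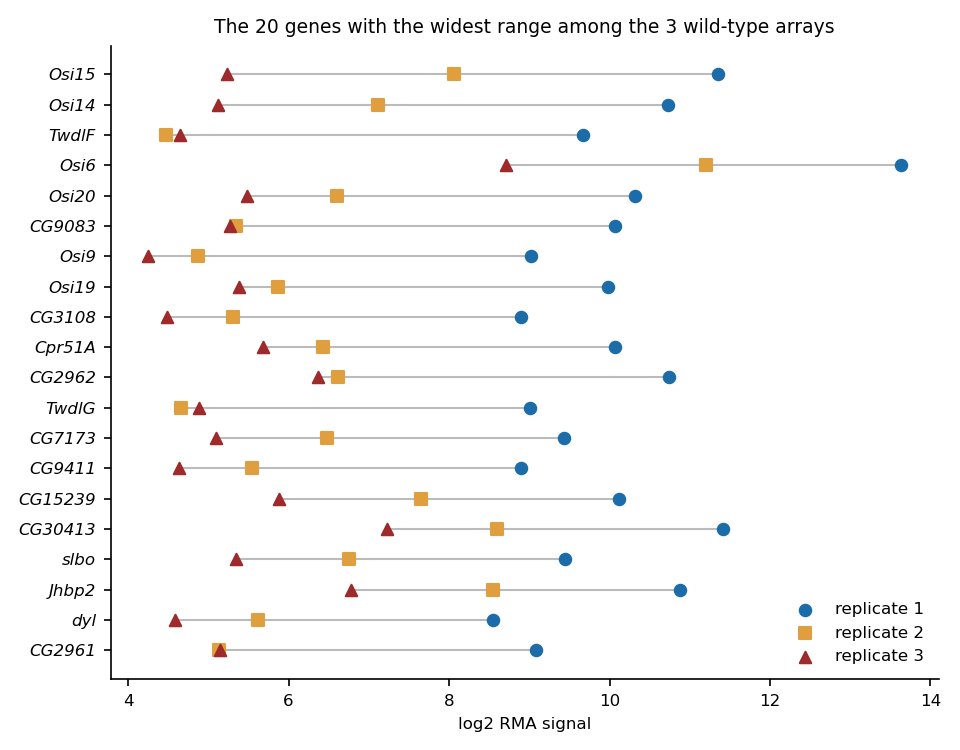
Log2 RMA signal of the 20 genes with the widest range, as 1 symbol for each wild-type array (circles, replicate 1, squares, replicate 2, triangles, replicate 3). Replicate 1 is the highest array for every gene shown, and replicate 2 lies between the others for most.

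The Osiris family shows how unlike members of 1 family were. Of 24 genes 13 were varying, against 13.9% of all named genes. Of the 24, 7 were dim (29.2%), near the 32.6% of all named genes. All 13 varying genes were highest in replicate 1, against 58.9% of all varying genes. By the gene order of the RefSeq table, 12 of the 24 genes, Osi24 and Osi2 to Osi12, stand next to each other. Within that block Osi6 had 13.64, 11.20 and 8.70, Osi9 had 9.02, 4.87 and 4.25, and Osi2 had 7.75, 5.21 and 4.90. Between them Osi8 stayed at 4.64, 4.72 and 4.68, and Osi4 at 4.70, 4.53 and 4.68. A second run of adjacent genes, Osi17 to Osi20, had all 4 members varying, from 6.71, 5.51 and 5.48 for Osi17 to 10.32, 6.60 and 5.49 for Osi20. Over the genome 279 of 11891 neighbouring pairs (2.35%) were both varying, where 13.9% of all named genes were varying. Whether varying genes lie together more often than unrelated positions would was not tested. The other runs of 4 were CG14960 to CG14968 and CG31999 to dpr7, again highest in replicate 1, as were 58.9% of all varying genes.

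Cuticle protein families differed. Among 24 Tweedle genes 11 were varying, against 13.9% of all named genes. Of 81 RR cuticle protein genes 49 were dim, against 32.6% of all named genes. Of the 81, 8 (9.88%) were varying, a share below the 13.9% of all named genes. The median range of the 81 genes was 0.24. All 19 varying members of both lists were highest in replicate 1, against 58.9% of all varying genes. Among genes of chitin enzymes, the chitin synthase gene kkv was at 10.18, 9.41 and 7.40 and the chitinase gene Cht7 was at 9.25, 8.12 and 5.84. In the pathway that hardens and colours cuticle, the laccase gene stw had 7.84, 5.31 and 4.81, and Pu, whose enzyme starts the synthesis of the cofactor of tyrosine hydroxylase, had 8.53, 7.16 and 6.46. The genes of tyrosine hydroxylase and dopa decarboxylase, ple and Ddc, were dim and even, at 4.66 ± 0.02 and 5.23 ± 0.08 (SD, n = 3).

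The tracheal list had the largest share of varying genes among the 52 lists. Of 22 genes 17 were varying, against 13.9% of all named genes, none was dim, and all 22 were lowest in replicate 3, against 28.4% of all named genes. Their median range was 1.73 log2 units. The chitin deacetylase genes serp and verm had 11.03, 10.27 and 8.84, and 9.95, 8.77 and 7.49, and Gasp, a chitin-binding protein of the tracheal lumen, had 11.13, 9.54 and 8.01. Regulators of tracheal cells differed among themselves. The FGF receptor gene btl had a range of 0.60, and the transcription factor gene kni had 9.79, 9.62 and 9.06. The transcription factor gene vvl was varying, at 8.76, 8.35 and 7.39. The transcription factor gene rib, which acts in trachea and salivary gland, was bright at 13.21, 13.28 and 12.69. Several members of the list, such as kkv and serp, are also used in the epidermis.

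Contractile genes of muscle were mostly highest in replicate 1. Among 27 genes 16 were varying, against 13.9% of all named genes, and the median range was 1.25. Of the 16 varying genes 13 were highest in replicate 1, against 58.9% of all varying genes. Mlc2, the regulatory myosin light chain, had 9.86, 7.82 and 6.12 log2 units, Tm2, a tropomyosin, 10.57, 8.41 and 7.04, and the troponin T gene up 9.33, 7.13 and 5.77. In the muscle LIM gene Mlp60A the values were 12.11, 9.56 and 9.03. The genes of indirect flight muscle Act88F and fln were dim, at 5.24 ± 0.13 and 4.64 ± 0.18 (SD, n = 3). Myoblast fusion genes varied less and had replicates 1 and 2 close together: rst had 10.76, 10.88 and 9.54, and sns, an adhesion receptor of fusion-competent cells, had 6.89, 7.30 and 6.13. Of the 14 founder and fusion genes 7 were varying, against 13.9% of all named genes. The median deviation of these 14 genes was 0.12, 0.22 and -0.43 in replicates 1, 2 and 3, against 0.43, -0.11 and -0.62 for contractile genes.

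Varying genes of the haemocyte list, which holds matrix proteins, receptors and transcription factors, were lowest in replicate 3. Of 28 genes in the haemocyte list 13 were varying, against 13.9% of all named genes. All 13 were lowest in replicate 3, against 65.6% of all varying genes, with 8 highest in replicate 1 and 5 in replicate 2. The collagen IV genes Col4a1 and vkg had 9.75, 8.99 and 6.99, and 9.80, 8.89 and 7.21. The laminin chains were highest in replicate 2, with LanA at 12.35, 12.64 and 10.97 and LanB2 at 12.08, 12.20 and 10.65. Papilin, coded by Ppn, had 11.84, 12.16 and 10.03. The haemocyte transcription factor genes srp and gcm had ranges of 0.33 and 0.51, against a median of 0.39 for all named genes, and the larval receptor genes eater and NimC1 were dim.

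In the nervous system, genes of the synapse and of its precursors had different orders. Of 40 synapse genes 16 were dim and 12 varying, against 32.6% and 13.9% of all named genes. Of the 12 varying genes 10 were highest in replicate 1, against 58.9% of all varying genes. The acetylcholine receptor subunit gene nAChRbeta1 had 8.37, 7.23 and 5.14, complexin, coded by cpx, 6.80, 5.73 and 4.58, and the synaptic vesicle gene Rab3 6.54, 4.71 and 3.98. The pan-neuronal RNA-binding protein gene fne averaged 10.45 ± 1.26 (SD, n = 3) and was lowest in replicate 3. The active zone gene brp and the glutamate transporter gene VGlut stayed near background, at 5.37 ± 0.19 and 5.27 ± 0.18 (SD, n = 3). In the 27 neuroblast and new neuron genes 12 were varying, against 13.9% of all named genes, with no single direction. Of all varying genes 58.9%, 14.8% and 26.3% were highest in replicates 1, 2 and 3. Here 4 were highest in replicate 1, 5 in replicate 2 and 3 in replicate 3. Those 3 were the proneural genes ac, sc and l(1)sc, and l(1)sc had 8.32, 9.60 and 10.07. The late temporal factor gene cas went the other way, with 9.30, 8.84 and 7.51, and the neuroblast gene mira was even at 10.51, 10.44 and 10.43. In glia 5 of 18 genes were varying, against 13.9% of all named genes, with alrm, an astrocyte gene, at 7.37, 6.35 and 5.25.

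Ecdysone response genes were among the widest ranges outside cuticle. Of 17 genes 10 were varying, against 13.9% of all named genes. ImpL1 had 13.32, 11.41 and 9.85, ImpE2 had 12.25, 10.15 and 8.69, and ImpE1 had 9.20, 8.60 and 6.17. The nuclear receptor genes Hr3 and Hr4 had replicates 1 and 2 together above replicate 3, with 7.05, 6.76 and 4.86 for Hr3 and 7.34, 7.04 and 5.29 for Hr4. The receptor's own genes, EcR and usp, had ranges of 0.79 and 0.66. In ftz-f1, a nuclear receptor gene with a maternal supply, the order was opposite, with 7.69, 9.31 and 9.44. Cyp18a1, whose enzyme inactivates ecdysone, had 7.91, 6.70 and 5.91.

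Of 19 salivary gland genes 8 were varying, against 13.9% of all named genes. All 8 were lowest in replicate 3, as were 65.6% of all varying genes. The genes nur and CG14756 had 13.77, 12.96 and 12.17, and 13.02, 11.86 and 10.69. The general secretory machinery moved less: 2 of 27 genes were varying, against 13.9% of all named genes. However, 26 of the 27 were higher in replicate 1 than in replicate 3, against 4889 of the 11982 named genes. The median difference was 0.49, or 0.90 when scaled to the hybridization controls. The chaperone of the endoplasmic reticulum Hsc70-3 had 12.89, 12.59 and 11.62. Among genes whose symbols begin with Tsp, tetraspanins plus the thrombospondin gene Tsp, 14 of 33 were varying, against 13.9% of all named genes. All 14 were highest in replicate 1, against 58.9% of all varying genes. This family was taken up after its values were seen.

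Maternal and early zygotic genes were mostly lowest in replicate 1, in 13 of 16 and 9 of 13 cases, against 43.6% of all named genes. Maternal and germ line genes had 8 of 16 varying members, against 13.9% of all named genes. None of the 8 was highest in replicate 1, against 58.9% of all varying genes. The median deviation of the list was -0.45, 0.28 and 0.35 in replicates 1, 2 and 3. The maternal patterning genes bcd and osk had 7.83, 9.88 and 9.79, and 6.88, 8.89 and 8.43 log2 units. The RNA-binding protein gene smg, which directs the clearance of maternal transcripts, had 10.79, 12.06 and 12.19. Cellularisation and early zygotic genes behaved alike, with 6 of 13 varying, slam at 7.37, 9.19 and 9.19 and nullo at 5.17, 5.97 and 6.91. The embryonic linker histone gene BigH1 had 9.23, 10.77 and 11.26. Over all genes the widest ranges with the highest value in replicate 3, selected after the values were seen, were those of bam, a regulator of germ cell differentiation, with a 7.29-fold span, CG34025 at 6.43, 6.78 and 9.12, and CG11674 at 7.90, 9.63 and 10.47. The same selection held plu, a regulator of the first embryonic divisions, at 8.01, 9.75 and 10.33, and Gasz, a piRNA pathway gene, at 5.64, 6.76 and 7.82. With the highest value in replicate 2, by the same choice, wisp, the poly(A) polymerase of egg activation, had 8.54, 10.78 and 10.69. There replicate 1 was the low array, whereas in the neuronal gene Appl, at 7.99, 8.04 and 5.13, it was replicate 3.

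Nearly all cell division genes were lower in replicate 1 than in replicate 3. This held for 20 of 21 genes, against 59.2% of all named genes, with a median difference of -0.80 log2 units, against -0.09. Only 2 of the 21, aurB and twe, were varying, against 13.9% of all named genes. The replication clamp gene PCNA had 11.52, 11.74 and 12.33, the helicase subunit gene Mcm6 10.76, 11.35 and 11.72, and the mitotic cyclin gene CycB 12.52, 13.22 and 13.33. The exception was fzr, the activator of the anaphase-promoting complex at cell cycle exit, with 9.51, 9.46 and 8.99. Some list medians depend on the scale: of the 52 lists, the sign of the median difference between replicates 1 and 3 turned in 12 under cyclic loess and in 28 under scaling to the hybridization controls. For cell division genes under the hybridization controls the median was -0.39 and 16 of 21 genes were below 0, as were 2054 of the 11982 named genes.

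**Figure D4:**
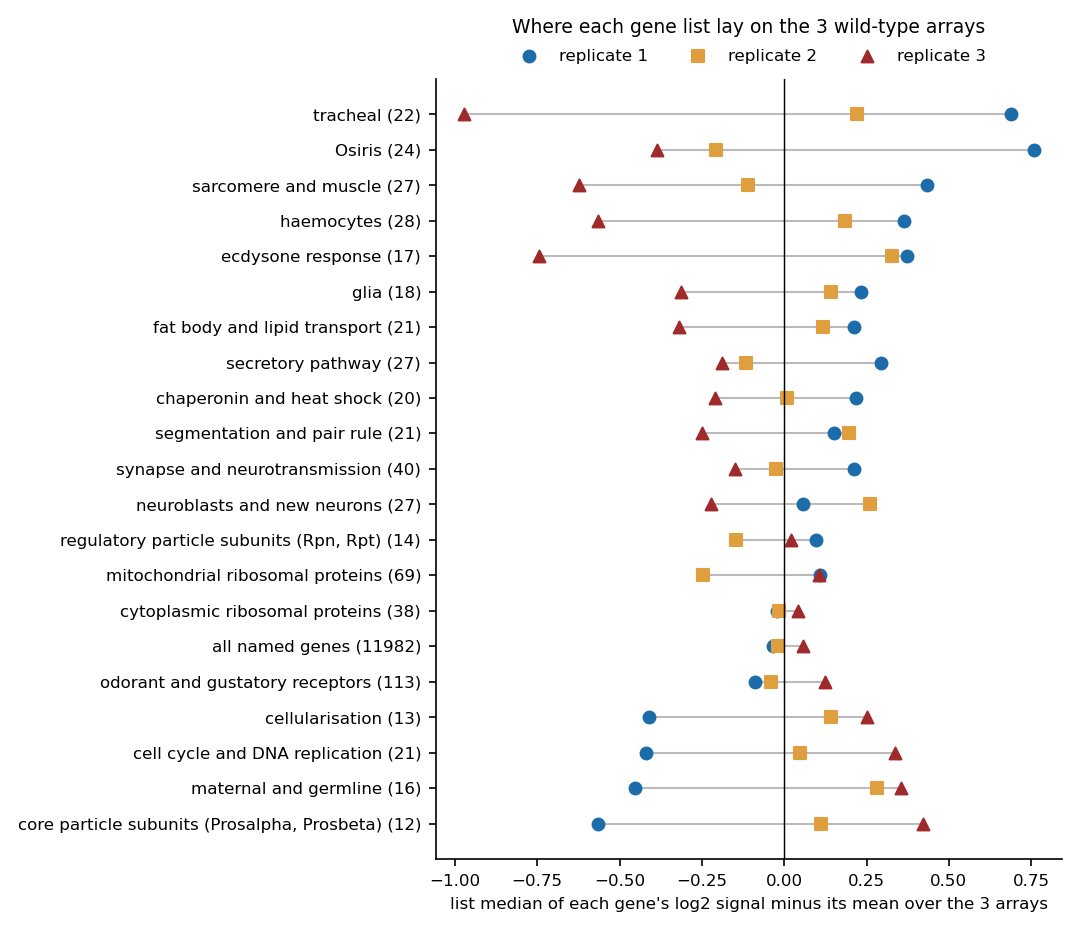
Median, over the genes of each list, of the log2 signal minus the gene's mean over the 3 arrays, as 1 symbol for each wild-type array, with the number of genes in brackets. Tracheal, Osiris and muscle genes lie highest in replicate 1, and maternal and cell cycle genes lie lowest there. These lists kept the sign of replicate 1 minus replicate 3 under all 3 other scalings, whereas 28 of the 52 lists turned sign under the hybridization controls.

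The proteasome divided by particle once its 14 paralogues marked as testis-type, related or like copies were left out. Of those 14 paralogues 5 were lowest in replicate 1. Of all 40 proteasome genes 6 were varying, near the 13.9% of all named genes. The 12 other genes of the core particle, the barrel of alpha and beta subunits that cuts proteins, were all lowest in replicate 1. All 12 were highest in replicate 3. Over all named genes these shares were 43.6% and 49.2%. Prosalpha5 had 11.60, 12.22 and 12.70, and Prosbeta3 had 11.85, 12.60 and 12.82. Their median difference between replicates 1 and 3 was -0.98, and 5 of the 12 were varying, against 13.9% of all named genes. The 14 genes of the regulatory particle, the cap that binds and unfolds substrates, had a median difference of 0.10, and none was varying. Of the 14, 9 were lowest in replicate 2, against 28% of all named genes. Rpn7 had 10.41, 9.95 and 10.02, and Rpt5 had 11.05, 10.69 and 10.82. Rpn12 went with the core, at 11.22, 11.75 and 12.12. Under scaling to the hybridization controls the core genes kept a median of -0.57, with 12 of 12 below 0, while the regulatory genes had 0.51. On that scale 4 of the 14 regulatory genes were lowest in replicate 2. Their median deviation there was 0.29, -0.12 and -0.19 in replicates 1, 2 and 3. The division into particles and the omission of the paralogues were made after the values were seen.

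**Figure D5:**
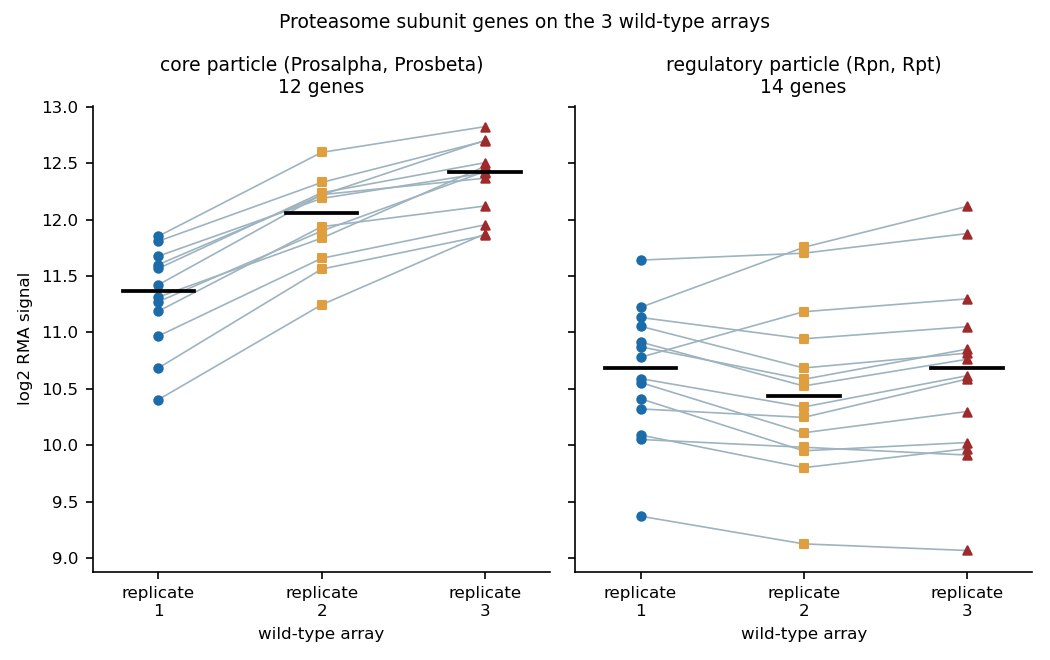
Log2 RMA signal of 12 core particle genes (left) and 14 regulatory particle genes (right) on the 3 wild-type arrays, with a grey line for each gene and a black bar for the median on each array. The core genes shown are lowest in replicate 1 without exception, with testis-type, related or like paralogues left out. The regulatory genes have no common order apart from the lower median in replicate 2, which depends on the scale.

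For most mitochondrial ribosomal protein genes replicate 2 was the low array. Of 69 genes 60 were lowest there, against 28% of all named genes, and their median deviation was 0.11, -0.25 and 0.11 in replicates 1, 2 and 3. When scaled to the hybridization controls, 51 of 69 were lowest there, against 2174 of the 11982 named genes under that scaling. None of the 69 was varying, against 13.9% of all named genes, and mRpS31, with the widest range, had 10.90, 10.01 and 10.32. Of the 73 respiratory chain genes 46 were lowest in replicate 2 as deposited and 26 under that scaling.

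Detoxification families held members of opposite order side by side. Among the glutathione S-transferases 9 of 35 were varying, against 13.9% of all named genes. Of the 9, 3 were highest in replicate 1 and 6 in replicate 3, against 58.9% and 26.3% of all varying genes. GstO3 had 9.24, 8.01 and 7.05, whereas its paralogue GstO1 had 6.34, 7.64 and 8.40. GstT4 had 11.91, 11.17 and 10.79, whereas GstT1 had 9.33, 10.67 and 11.20. Among the P450 genes 12 of 80 were varying, near the 13.9% of all named genes, with Cyp301a1 at 8.50, 6.11 and 5.05 and Cyp6v1 at 6.48, 8.30 and 8.37.

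Of 21 segmentation genes 2 were varying, bcd and nkd, and none was bright, shares near the 13.9% and 4.37% of all named genes. The brightest were ci, the transcription factor of Hedgehog signalling, at 11.21, 11.01 and 10.49, and the pair-rule gene hry, at 10.35, 10.44 and 9.78. Of 7 Hox and homeotic genes Antp, with 9.05, 9.30 and 7.81, and Scr, with 8.91, 8.82 and 7.49, were varying, while pb was dim.

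Genes known only by a CG number were less visible as a class. Of 5209 such genes 61 were bright, 2343 dim and 593 varying, against 463, 1559 and 1071 of the 6773 genes with another symbol. Among probe sets with no single symbol 70.0% were dim and 4.02% varying, against 36.6% and 13.3% of those with 1 symbol. The choice of probe set bears on all these levels: of 1094 genes with several probe sets, the brightest was not dim while another was dim in 504 (46.1%). Of the 245 whose brightest probe set was varying, another was varying in 72 (29.4%), and of 56 genes with at least 2-fold differences between replicates 1 and 3 at both, 0 had opposite directions. Among the varying members of the lists 36 had several probe sets, and in 15 of them another probe set was varying as well. For osk and ftz-f1 another did so, with ranges of up to 1.83 and 1.98, while at the other probe sets of Mlp60A, Hr4, stw, bcd, cpx, Pxn and nAChRbeta1 the range was at most 0.21, 0.25, 0.47, 0.37, 0.44, 0.29 and 0.56 log2 units.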

How the data were processed

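Biotin-labelled cRNA from 100 ng of total RNA per collection was measured on 1 array each. The values are log2 signals per probe set, which the authors computed in Partek by RMA according to the design text (no version is stated there); RMA narrows differences near background. Scan dates and batches were not used here.

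Of 18769 probe sets 13647 had 1 gene symbol in the platform annotation, 402 had several and 4720 are unnamed here. Symbols were checked against a RefSeq gene table (assembly Release 6 plus ISO1 MT), which lacked 103 and was used for gene order too. A gene was read from its probe set with the highest mean. Means, SDs, ranges and counts were computed with Python 3.11.15, numpy 2.4.6 and pandas 2.3.3 and tested on simulated data. Cyclic loess used limma 3.58.1 in R 4.3.3. No test was run, since the 3 arrays form 1 group, and their number limits the precision.

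Named by rule were the 15 brightest genes, the 20 with the widest range, the 8 most even and up to 3 brightest and 3 widest members of each list. The other genes named were selected after their values were seen. The 52 gene lists were chosen with earlier results of these data known, were corrected for membership after values were seen, and share some genes (elav, grh, Scr, kkv, bcd). The promoter motifs planned were not analysed here, as no promoter sequence was used.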

Additional observations from a re-analysis of the deposited data

How the results depend on the processing

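With a threshold of 4-fold in place of 2-fold, 321 probe sets and 279 genes were varying, against 2024 and 1664. Leaving out 1 replicate gave 672 to 1777 varying probe sets and 497 to 1493 varying genes, the lowest counts being without replicate 1, as fewer arrays can only narrow a range. Under a median shift, cyclic loess and scaling to the hybridization controls 1690, 1665 and 2241 genes were varying. A top 10% threshold made 1478 probe sets bright, against 719. Leaving out 1 replicate gave 748 to 814 bright and 8694 to 8971 dim probe sets, against 8579 dim. The median difference between replicates 1 and 3 of the rhodopsin and phototransduction list, -0.32, turned to 0.083 when scaled to the hybridization controls, a shift by construction of that scale. The array with the highest median deviation changed for 4, 13 and 31 of 52 lists under the median shift, cyclic loess and hybridization controls. Of these lists, the median range moved by more than the replicate spread in 9 under that scaling, 1 under cyclic loess and 0 under the median shift. The control probe sets as the limit of dim, the count over genes and the lists' differences between replicates 1 and 3 were added after seeing the data. No paired analysis was possible because only 1 group was described. The planned promoter motif counts were not run. Most dim genes and most TrpnX and Tag controls were highest on the same array, which limits what small differences near background show.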
